A study of Saccharomyces cerevisiae with 6 samples.

Results

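The 10 genes of glycogen synthesis and breakdown in *Saccharomyces cerevisiae* (*GLG1*, *GLG2*, *GSY1*, *GSY2*, *GLC3*, *PGM1*, *PGM2*, *UGP1*, *GPH1* and *GDB1*) were chosen by name for their place in the pathway, with earlier results of these data known. All 10 were found in the platform's table of probes, each with 1 probe set of its own, out of 5449 yeast genes measured. RNA came from strain BY4742, a haploid laboratory strain of the alpha mating type that lacks working *HIS3*, *LEU2*, *LYS2* and *URA3*, and this background was common to all groups. Cells were grown in the rich glucose medium YPD for 24 h and then moved to fresh YPD for another 24 h, with nothing added (untreated control), with 0.27 mg/L nystatin, or with both agents (0.27 mg/L nystatin plus 100 mg/L CdS QDs). Each of the 3 groups had 2 GeneChip arrays, 6 in all. CdS QDs are cadmium sulphide nanocrystals. Nystatin, a polyene antifungal drug, served to raise their entry into the cell (its dose is as in the labels, and the methods of the study give another). No group received CdS QDs without nystatin.

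Glycogen is a branched store of glucose that yeast builds as glucose runs low and spends later. Phosphoglucomutase (Pgm1, Pgm2) turns glucose-6-phosphate into glucose-1-phosphate, and Ugp1 turns that into UDP-glucose, the donor of every new glucose unit. The glycogenins Glg1 and Glg2 prime a particle by adding the first units to themselves, the glycogen synthases Gsy1 and Gsy2 lengthen the chains, and Glc3 adds the branches. Gph1, the phosphorylase, and Gdb1, the debranching enzyme, take the particle apart again. The glucose-1-phosphate that Gph1 releases returns through phosphoglucomutase. The enzymes are also switched by phosphorylation, which RNA levels do not show.

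Values are log2 signals made by the authors with RMA, which corrects the background, gives all arrays the same distribution and summarises each probe set. They are therefore relative to the other RNAs of the same array, and a change in the total amount of RNA does not show. RNA was extracted from many cells together, so less of an RNA per cell and fewer cells holding it cannot be told apart. All 10 genes lay above the background on every array, taken as the 95th percentile of the 1747 probe sets of the fission yeast *Schizosaccharomyces pombe* (1.42 to 1.48). So did 98.8% to 99.2% of all yeast probe sets, depending on the array. The 2 arrays of a group correlated at 0.998 to 0.999 across probe sets. The methods describe replicate arrays as aliquots of an RNA extract, and p-values may thus measure only technical spread. The deleted genes *URA3* and *LYS2* were not above background on any array, and *LEU2* was above it on 4 of 6, at 2.29 or less. Even so, the limma test used below called some of their fold changes against the untreated control. With both agents these were 0.55 for *LEU2* (adjusted p = 0.00319) and −0.21 for *LYS2* (0.00368), while *URA3* did not pass. With nystatin alone they were −0.23 for *URA3* (0.0116) and −0.20 for *LYS2* (0.0204), while *LEU2* did not pass. Fold changes of this size were thus called for genes that the strain lacks. All 4 genes specific to alpha cells, and also all 5 specific to a cells, were above background on every array. For 7 control genes probed at both ends of the transcript, the gap between the 3' and the 5' end was 1.58 log2 units on both nystatin + CdS QDs arrays and 1.41 to 1.47 on the other 4, and its part in the results was not tested.

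With nystatin plus CdS QDs, 9 of the 10 genes differed from the untreated control, in both directions. Both glycogen synthase genes, the branching enzyme gene and *UGP1* fell, while *GPH1*, *GDB1*, *GLG2* and both phosphoglucomutase genes rose, and *GLG1* did not pass the test. A gene is said to have risen or fallen where one limma model of all 6 arrays gave p under 0.05 after Benjamini-Hochberg adjustment over 5498 yeast probe sets. Thus 5 of the 10 genes rose, against 36.5% of all probe sets, and 4 fell, against 38.9%, so the number of glycogen genes called was close to that of the array as a whole. Both arrays lay above both control arrays for 5 genes (42.7% of all probe sets) and below them for 4 (44.9%). The changes were modest. No glycogen gene changed by as much as 1 log2 unit, the threshold of the study, which together with an unadjusted p under 0.01 was passed by 4.95% of probe sets upwards and 5.15% downwards. Their median log2 fold change was 0.10, between −0.83 and 0.77, beside a median of −0.02 and a standard deviation of 0.68 over all genes.

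**Figure D1:**
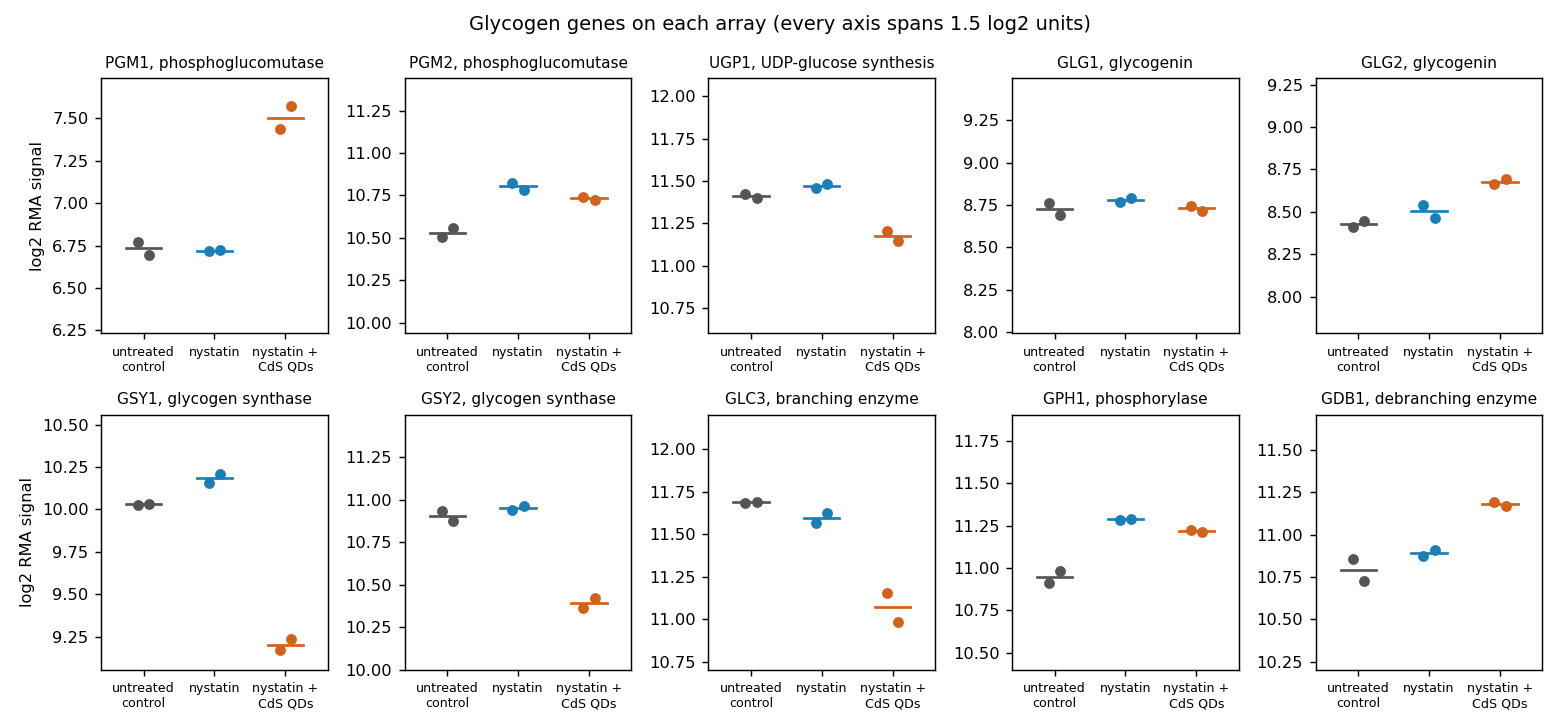
Log2 RMA signal (vertical axis) of the 10 glycogen genes on the 2 arrays of each group (points) with the group mean (line); each panel spans 1.5 log2 units around its own centre, and heights are not comparable between genes. The nystatin + CdS QDs arrays are lowest for *UGP1*, *GSY1*, *GSY2* and *GLC3* and highest for *PGM1*, *GLG2* and *GDB1*, while *PGM2* and *GPH1* are already higher with nystatin alone.

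*GSY1*, for one of the 2 glycogen synthases, had the lowest fold change of the 10. Its log2 signal was 10.03 on both control arrays, 10.16 and 10.21 with nystatin alone, and 9.17 and 9.24 with both agents. The CdS QDs arrays were thus below the other 4 by more than any group's spread. Against the untreated control *GSY1* fell by 0.83 log2 units (standard error 0.047, adjusted p = 5.95e-06), 1.77-fold lower, and only 7.82% of genes had a lower fold change.

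*GSY2*, for the synthase that is the major form in cells entering stationary phase, followed with a smaller change. It stood at 10.93 and 10.87 in the control, at 10.94 and 10.97 with nystatin alone, and at 10.36 and 10.42 with both agents. Again the CdS QDs arrays did not overlap with either other group, and the 2 other groups lay close together. *GSY2* fell by 0.51 (standard error 0.046, adjusted p = 5.68e-05), 1.42-fold lower.

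*GLC3* encodes the branching enzyme. Its signal was 11.69 on both control arrays, 11.57 and 11.63 with nystatin alone, and 11.16 and 10.98 with both agents, where its replicates were farther apart (SD 0.12, n = 2) than those of any other glycogen gene in any group. *GLC3* fell by 0.62 (standard error 0.064, adjusted p = 1.08e-04), 1.53-fold lower. The chain-building genes *GSY1*, *GSY2* and *GLC3* therefore lay in the lowest fold changes of the pathway, with 7.82%, 16.4% and 12.8% of all genes below them.

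Of the genes of breakdown, *GPH1*, for glycogen phosphorylase, was at 10.91 and 10.98 in the control, 11.29 and 11.29 with nystatin alone, and 11.22 and 11.21 with both agents. Both treated groups were above the control, and the group with CdS QDs was slightly below that with nystatin alone. Relative to the control, *GPH1* rose by 0.27 (standard error 0.045, adjusted p = 0.00122), 1.21-fold. *GDB1*, for the debranching enzyme, was at 10.86 and 10.73 in the control, 10.88 and 10.91 with nystatin alone, and 11.19 and 11.17 with both agents. It rose by 0.39 (standard error 0.054, adjusted p = 5.26e-04), 1.31-fold, with 78.5% of genes below it. Unlike in *GPH1*, the nystatin arrays of *GDB1* were near the control, and the higher level was on the CdS QDs arrays.

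Among the genes that supply UDP-glucose, *PGM1*, for the minor phosphoglucomutase, changed most. It had 6.77 and 6.70 in the control, 6.72 on both nystatin arrays, and 7.44 and 7.57 with nystatin plus CdS QDs. *PGM1* rose by 0.77 (standard error 0.058, adjusted p = 2.31e-05), 1.71-fold, and 91.5% of genes had a lower fold change. *PGM2*, for the major phosphoglucomutase, was at 10.51 and 10.56 in the control, at 10.82 and 10.78 with nystatin alone, and at 10.74 and 10.72 with both agents, a rise against the control of 0.20 (standard error 0.044, adjusted p = 0.00454), 1.15-fold. *UGP1*, which makes UDP-glucose not only for glycogen but also for trehalose and cell wall glucan, went the other way, from 11.42 and 11.40 in the control and 11.46 and 11.48 with nystatin to 11.21 and 11.15 with nystatin plus CdS QDs. It fell by 0.24 (standard error 0.044, adjusted p = 0.00226), 1.18-fold lower, the smallest of the 4 decreases.

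The 2 glycogenin genes differed in their calls. *GLG1* had 8.76 and 8.69 in the control, 8.77 and 8.79 with nystatin alone, and 8.75 and 8.72 with both agents, so that the arrays of the 3 groups lay close together and those with CdS QDs were between the control arrays. Its log2 fold change was 0.00 with a 95% confidence interval of −0.11 to 0.11 (adjusted p = 0.962). *GLG2* had 8.41 and 8.44 in the control, 8.54 and 8.47 with nystatin alone, and 8.67 and 8.69 with both agents. It rose by 0.25 (standard error 0.046, adjusted p = 0.00206), 1.19-fold.

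**Figure D2:**
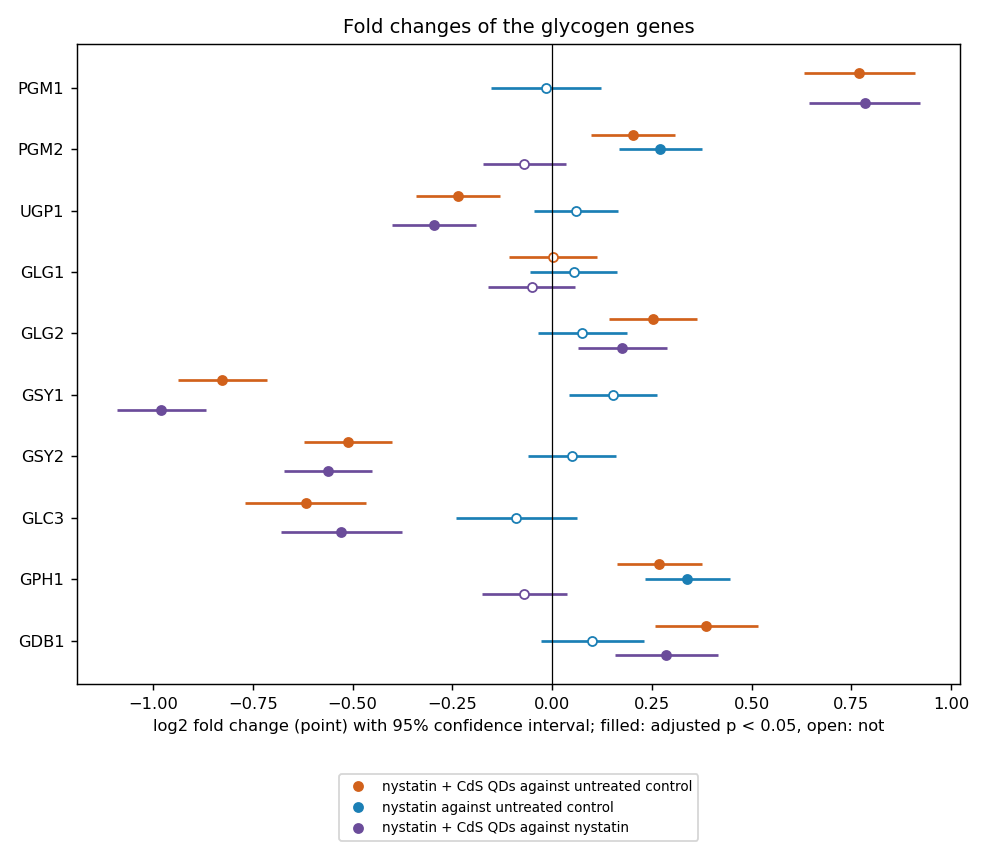
Log2 fold change (horizontal axis) of each glycogen gene in the 3 comparisons, with 95% confidence intervals from the limma model; filled points have an adjusted p under 0.05. With nystatin + CdS QDs against the untreated control, *GSY1*, *GLC3*, *GSY2* and *UGP1* lie left of 0 and *PGM1*, *GDB1*, *GPH1*, *GLG2* and *PGM2* right of it, and with nystatin alone only *GPH1* and *PGM2* are filled.

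With nystatin alone 2 of these genes were called. *GPH1* rose by 0.34 relative to the untreated control (standard error 0.045, adjusted p = 0.00509) and *PGM2* by 0.27 (standard error 0.044, adjusted p = 0.00931). Thus 2 of 10 rose, against 10.4% of all probe sets, and 0 fell, against 11.4%. Rises and falls together, the share called was close to that of the array as a whole. At an unadjusted p under 0.05 in the same limma fit, 3 were higher and 0 lower. The third was *GSY1*, at 0.15 (standard error 0.047, adjusted p = 0.0581). It passed with an intensity trend in the variance (0.0220), with only the arrays compared (0.0389) and after repeated quantile normalization (0.0474). Leaving out a nystatin + CdS QDs array gives this comparison the same fit as only the arrays compared, and is no further check. Fold changes with nystatin were small across the array (standard deviation 0.19), and in that narrow distribution *GPH1* and *PGM2* had 97.4% and 95.2% of genes below them. Both nystatin arrays lay above both control arrays for 8 of the 10 genes (34.3% of all probe sets), below them for *GLC3* (35.8%), and overlapped for *PGM1*. Neither call held throughout when arrays were left out, where 1 of the 2 groups had 1 array and no spread of its own. The call of *PGM2* ended without untreated control replicate 1 or 2 or nystatin replicate 1 or 2. That of *GPH1* ended without untreated control replicate 1 or nystatin replicate 2. Over the repeats the fold changes moved little, from 0.246 to 0.296 for *PGM2* and from 0.303 to 0.374 for *GPH1*. When every probe set on the array was tested, neither *PGM2* nor *GPH1* passed (adjusted p = 0.0726 and 0.0577), and without moderation *PGM2* did not (0.0511).

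Nystatin plus CdS QDs was also set against nystatin alone, a comparison in which both groups had nystatin. Here *PGM1*, *GDB1* and *GLG2* rose (3 of 10, against 36.7% of all probe sets) and *GSY1*, *GSY2*, *GLC3* and *UGP1* fell (4 of 10, against 38.3%). *GSY1* fell by 0.98 (standard error 0.047, adjusted p = 2.99e-06), 1.97-fold lower, with 4.96% of genes below it. *GSY2* fell by 0.56, *GLC3* fell by 0.53 and *UGP1* fell by 0.30, and *PGM1* rose by 0.78 (standard error 0.058, adjusted p = 2.26e-05). *GDB1* rose by 0.29 (adjusted p = 0.00241) and *GLG2* by 0.18 (adjusted p = 0.0111). The call of *GLG2* ended without nystatin replicate 2 (adjusted p = 0.0744). *GPH1* and *PGM2*, the 2 genes that had risen with nystatin alone, were at −0.07 in both cases, with 95% confidence intervals of −0.18 to 0.04 and −0.17 to 0.04 (adjusted p = 0.195 and 0.193). The CdS QDs arrays were above both nystatin arrays for 3 genes (42.7% of all probe sets) and below them for 7 (44.6%). The 3 comparisons share arrays, so they are not independent of each other.

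**Figure D3:**
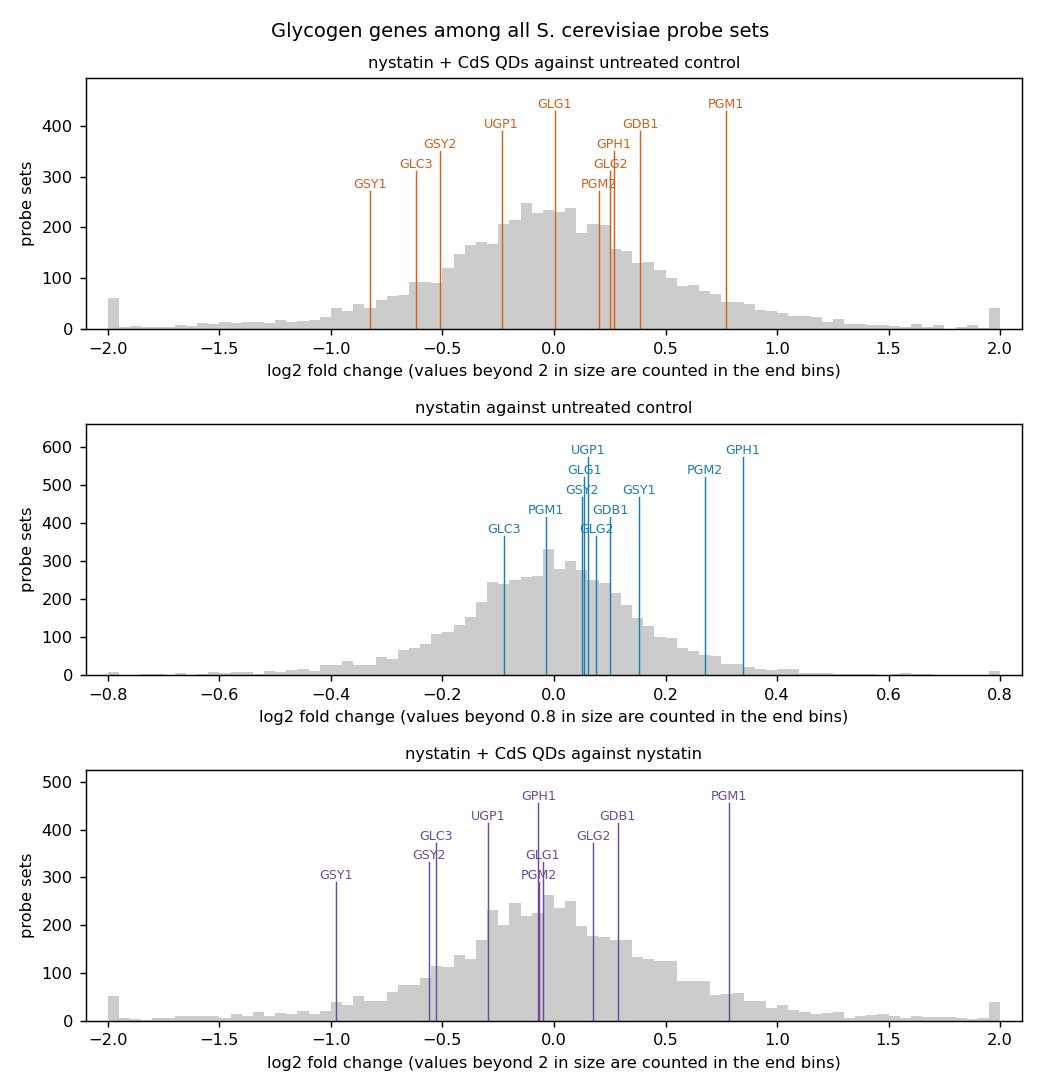
Histograms of the log2 fold changes of 5498 yeast probe sets (grey; horizontal axis log2 fold change, vertical axis number of probe sets) in the 3 comparisons, with lines at the glycogen genes; the middle panel has a narrower axis. *GSY1* and *PGM1* lie towards opposite ends with nystatin + CdS QDs, and *GPH1* and *PGM2* lie towards the upper end with nystatin alone.

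Glycogen synthase, glycogenin and phosphoglucomutase are each made from a pair of paralogs, and within each pair the fold changes differed in size or sign. The difference between paralogs was taken on each array and set against its mean in the untreated control. For *GSY2* minus *GSY1* it was −0.09 and −0.12 with nystatin alone and 0.32 and 0.31 with both agents, with the larger decrease in *GSY1*. For *GLG2* minus *GLG1* it was 0.07 and −0.03 with nystatin, where the control arrays were at −0.05 and 0.05, and 0.22 and 0.28 with nystatin plus CdS QDs. The difference within the phosphoglucomutase pair had opposite signs with the 2 treatments. *PGM2* minus *PGM1* was 0.31 and 0.26 with nystatin, where *PGM2* had risen and *PGM1* was at −0.01, and −0.49 and −0.65 with nystatin plus CdS QDs, where *PGM1* had risen by more. Against the control these are differences in log2 fold change of 0.32 for the synthases, 0.25 for the glycogenins and −0.57 for the phosphoglucomutases with nystatin plus CdS QDs, and of −0.10, 0.02 and 0.29 with nystatin. Between nystatin plus CdS QDs and nystatin alone they were 0.42, 0.23 and −0.85. With 2 arrays against 2, a two-sided exact permutation test cannot go below p = 0.333, so none of the 9 differences could pass. In 8 of them the arrays of the 2 groups did not overlap (exact p = 0.333, adjusted p = 0.375 over the 9), and they did for *GLG2* minus *GLG1* with nystatin (exact p = 0.667). Most single probe sets did not overlap either. Of all probe sets, 42.7% lay above and 44.9% below the control with both agents, and 34.3% and 35.8% with nystatin. Between the treated groups 42.7% lay above and 44.6% below. The share for differences between pairs of genes was not computed. The probes of paralogs were not compared in sequence here, and signal that one paralog could give on the probes of the other was not tested.

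**Figure D4:**
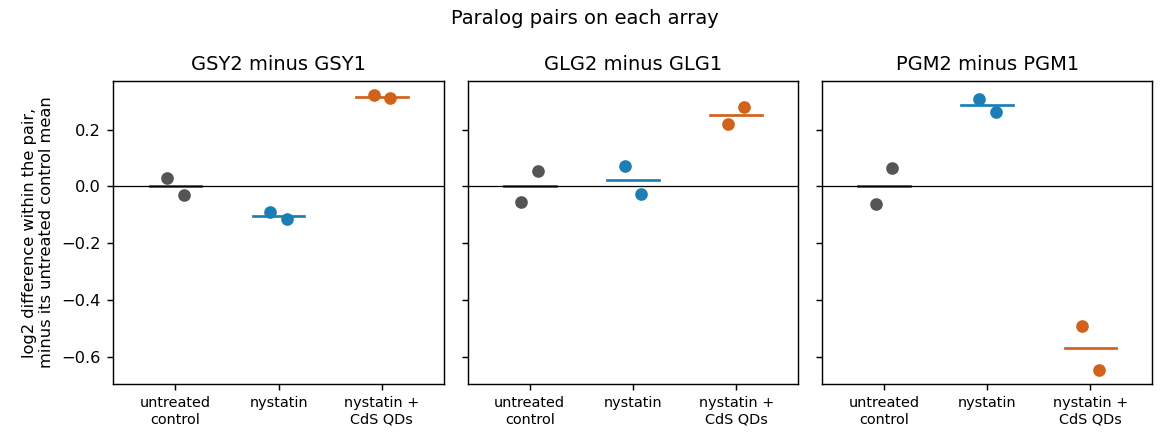
Log2 difference within each paralog pair on each array, minus the mean of that difference in the untreated control (vertical axis), for the 3 groups (points are arrays, lines are group means). The phosphoglucomutase pair lies above 0 with nystatin and below it with nystatin + CdS QDs, and the 2 other pairs are highest with nystatin + CdS QDs.

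Around the enzymes stand the genes that switch them. Of 17 genes listed as regulators of glycogen metabolism, 9 fell relative to the untreated control in the cells given both agents. Of the others, 5 rose and 3 did not pass the test. The genes that fell and rose are 52.9% and 29.4% of the 17, against 38.9% and 36.5% of all probe sets. The median log2 fold change of the 17 was −0.25, against −0.02 over all genes. The 17 include *SGA1*, a glucoamylase gene rather than a regulator, which is among the 3 that did not pass. All 4 genes for subunits that bring, or are thought to bring, the phosphatase Glc7 to glycogen and its synthase, where it activates the synthase, fell. *PIG1* was at 6.37 and 6.31 in the control, 6.56 and 6.52 with nystatin alone, and 5.03 and 4.82 with both agents, and fell by 1.41 (standard error 0.071, adjusted p = 3.49e-06). *GAC1*, the best known of them, fell by 0.41, *PIG2* fell by 0.50 and *GIP2* fell by 0.46. While 2.64% of all genes had a lower fold change than *PIG1*, the shares for *GAC1*, *PIG2* and *GIP2* were 20.8%, 17.0% and 18.3%. *GLC7* itself, the catalytic subunit of the phosphatase, fell by 0.27 (standard error 0.050, adjusted p = 0.00208), and *GLC8*, a modulator of Glc7, was at −0.12 (adjusted p = 0.0599). With nystatin alone *GAC1* and *PIG2* rose by 0.24 and 0.26, *GIP2* fell by 0.16, and *PIG1* was at 0.20 (adjusted p = 0.0835).

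On the side of the kinases, *PHO85*, for the cyclin-dependent kinase that phosphorylates and inactivates glycogen synthase, rose by 0.45 (standard error 0.063, adjusted p = 5.38e-04). Of its cyclins, *PCL8* and *PCL10*, which direct Pho85 to glycogen synthase, both fell. *PCL8* fell by 0.93 (adjusted p = 8.57e-05, standard error 0.092). For *PCL10* the log2 fold change was −0.69 (adjusted p = 1.91e-05). *PCL10* went from 9.11 and 9.03 in the control through 8.78 and 8.83 with nystatin to 8.36 and 8.41 with nystatin plus CdS QDs, and had already fallen with nystatin (−0.27, adjusted p = 0.0139). *PCL7*, a Pho85 cyclin also tied to glycogen metabolism, rose by 1.08 (standard error 0.050, adjusted p = 2.47e-06), from 8.95 and 8.88 in the control and 9.01 and 9.03 with nystatin to 10.04 and 9.96, while its paralog *PCL6* fell by 0.25. The PAS kinase genes *PSK1* and *PSK2* rose by 0.43 and 0.69. Psk2 is known to phosphorylate Ugp1 and glycogen synthase. *SNF1*, the kinase of low glucose, which glycogen storage needs, fell by 0.36, and *REG1*, for the Glc7 subunit that opposes Snf1, rose by 0.53.

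*IGD1*, for an inhibitor of Gdb1, was at 0.04 (adjusted p = 0.491). *SGA1*, a glucoamylase gene of sporulation, stood at 8.64 and 8.60 in the control, 8.05 and 7.97 with nystatin alone, and 8.70 and 8.61 with both agents. It fell by 0.61 with nystatin alone (standard error 0.052, adjusted p = 0.00183), and between the 2 treated groups it was higher by 0.65 with CdS QDs (adjusted p = 3.44e-05). Of the 17 listed genes, *SGA1* included, 2 rose and 3 fell with nystatin against the control (11.8% and 17.6%, against 10.4% and 11.4% of all probe sets). Between the treated groups 6 rose and 9 fell (35.3% and 52.9%, against 36.7% and 38.3%).

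**Figure D5:**
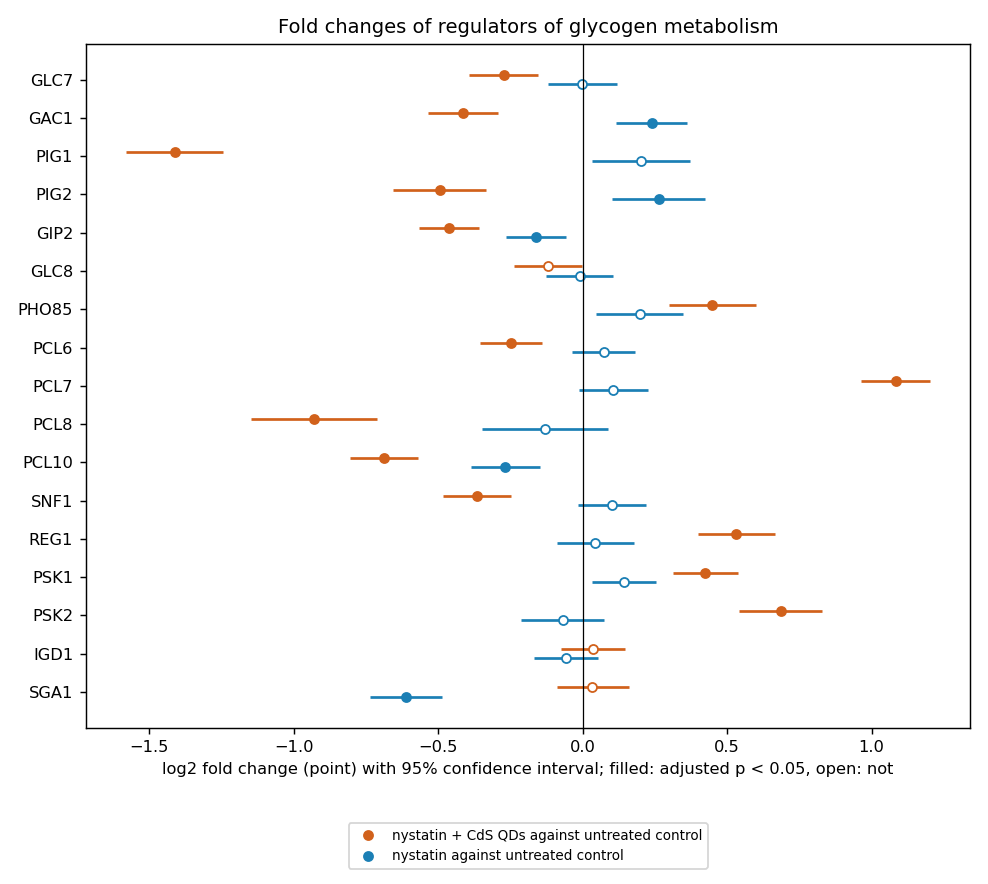
Log2 fold change (horizontal axis) of the 17 genes listed as regulators of glycogen metabolism, which include the glucoamylase gene *SGA1*. Values are for nystatin + CdS QDs and for nystatin against the untreated control, with 95% confidence intervals. Filled points have an adjusted p under 0.05. *PIG1* and *PCL8* lie lowest and *PCL7* highest with nystatin + CdS QDs, and *SGA1* lies lowest with nystatin alone.

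Genes that make or use the same sugar phosphates moved in both directions. Relative to the control, 5 of 13 measured rose with both agents and 4 fell (38.5% and 30.8%, against 36.5% and 38.9% of all probe sets), with a median of 0.05. *FKS1*, for a cell wall glucan synthase that consumes UDP-glucose, rose by 1.53 (standard error 0.052, adjusted p = 7.21e-07), and its paralog *GSC2* fell by 0.60 (adjusted p = 1.59e-05). *HXK2*, for the hexokinase of growth on glucose, rose by 1.19 (standard error 0.056, adjusted p = 2.60e-06), and *HXK1* and the glucokinase-like *EMI2* rose by 0.51 and 0.66. *GAL7*, whose product makes glucose-1-phosphate in the use of galactose, fell by 0.99 (standard error 0.052, adjusted p = 4.23e-06). *PRM15*, also known as *PGM3*, was at 0.05 (adjusted p = 0.324). With nystatin alone 5 of the 13 rose and 0 fell, against 10.4% and 11.4% of all probe sets, and at an unadjusted p under 0.05 in limma 6 were higher and 1 lower.

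Trehalose, the other carbohydrate store of yeast, also starts from UDP-glucose. Of its 7 genes, 5 fell and 0 rose with both agents relative to the control (6 lower and 0 higher at an unadjusted p under 0.05 in limma), with a median of −0.24. Of all probe sets 38.9% fell and 36.5% rose. *TPS2*, for trehalose-6-phosphate phosphatase, fell by 0.91 (standard error 0.059, adjusted p = 1.18e-05). The trehalase genes *ATH1* and *NTH2* had log2 fold changes of −0.69 and −0.65 (adjusted p = 3.97e-05 and 3.30e-05), and the third trehalase gene, *NTH1*, was at 0.07 (adjusted p = 0.159). The glycogen genes of breakdown, *GPH1* and *GDB1*, had risen in the same comparison, *GPH1* already with nystatin alone. With nystatin plus CdS QDs against nystatin alone, *GPH1* was at −0.07 and *GDB1* at 0.29. The trehalase genes *NTH2*, *ATH1* and *NTH1* were then at −0.58, −0.44 and 0.025. No test of the difference between the 2 pathways was made.

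Glycogen genes are held down by protein kinase A and induced by the stress factors Msn2 and Msn4. Of 8 genes of this control measured, 4 fell and 2 rose when nystatin plus CdS QDs was compared with the untreated control (38.9% and 36.5% of all probe sets). *MSN4* rose by 1.11 (standard error 0.080, adjusted p = 1.81e-05) and *MSN2* fell by 0.24 (standard error 0.079, adjusted p = 0.0280). *YAK1*, for a kinase that opposes protein kinase A, fell by 0.66 (adjusted p = 4.01e-05), and *GIS1*, for a transcription factor of the shift to stationary phase, fell by 0.43 (adjusted p = 8.39e-05). The other gene that rose was *TPK3*, a catalytic subunit of protein kinase A (0.30, adjusted p = 8.61e-04), and the other one that fell was *RIM15*, a kinase of entry into stationary phase.

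In the R64 gene table, 2 of the paralog pairs also have paralogous neighbours on their chromosomes. *PGM1* lies beside *YPK1* and *PGM2* beside *YPK2*, which encode kinases of membrane homeostasis, and *GLG1* lies beside *TIF1* and *GLG2* beside *TIF2*, for the translation factor eIF4A. Fold changes of the neighbours with nystatin plus CdS QDs are relative to the untreated control. *YPK1* fell by 0.43 in that comparison (standard error 0.041, adjusted p = 7.20e-05) where *PGM1* had risen, while *YPK2* rose by 0.35 (standard error 0.046, adjusted p = 3.66e-04), as *PGM2* had. *YMR105W-A*, the other neighbour of *PGM2*, also rose, by 0.61 (standard error 0.170, adjusted p = 0.0143). *TIF2* rose by 0.17 (adjusted p = 0.00948), as *GLG2* had, and no value was taken for *TIF1*. Signal that *TIF1* could give on the probes of *TIF2* was not tested. *RPS21A*, the other neighbour of *GLG1*, rose by 0.89 (adjusted p = 1.76e-05), where *GLG1* had not passed. *GSY2* lies between *YLR257W*, which fell by 0.77 (adjusted p = 7.07e-06), and *HSP60*, a mitochondrial chaperone gene that rose by 0.59 (adjusted p = 2.63e-05). *GDB1* lies between *DPM1*, at 0.05 (adjusted p = 0.377), and the autophagy gene *ATG13*, which fell by 0.71 (adjusted p = 1.16e-05). In this table no neighbour overlapped a glycogen gene. The remaining neighbours are not described here.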

How the data were processed

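Total RNA of *S. cerevisiae* BY4742 from 3 groups was hybridised to 6 GeneChip Yeast Genome 2.0 arrays (2 a group). The deposited log2 values were made by the authors with Affymetrix Expression Console and RMA. Scanner files were not used, and the genome build is not given in the sources used here. Probe sets were named through the platform table and the R64 gene table (5498 of *S. cerevisiae*, 1747 of *S. pombe*), and a gene with several is represented by its brightest.

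Group means were modelled with limma 3.58.1 (R 4.3.3) (3 residual and 3.80 prior degrees of freedom), with two-sided p-values adjusted by Benjamini-Hochberg over the 5498. The fit was tested on simulated data. Paralog differences were compared by exact permutation of arrays. Precision is limited by the number of arrays. Arrays were not paired by number, as no source ties a number to a culture and same-numbered arrays did not deviate together across probe sets (correlations of 0.03, 0.01 and −0.05).

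The members and lists were chosen with earlier results of these data known, and after the study's lists of changed genes, which hold *PIG1* and *PCL7*, had been read. Named are all 10 genes, the 3 genes of each other list with the smallest adjusted p with nystatin plus CdS QDs, and groups of 5 or fewer. The regulators, described by role, other list genes and the neighbours were named after their values were seen. Promoter and protein sequences were not analysed here, and 1 gene of the lists is not reported here. The fit was repeated without moderation, with an intensity trend, on the arrays of a comparison alone, with a replicate block, over all probe sets and without dim ones. Other repeats used a further quantile normalization, median centring, the mean of own probe sets or an adjusted p under 0.01, or left out each array. Figures were made with Python 3.11.15, matplotlib 3.10.9, numpy 2.4.6 and pandas 2.3.3.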

Additional observations from a re-analysis of the deposited data

How the results depend on the processing

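The 30 fold changes of the 10 glycogen genes and their counts were recomputed under 16 other settings, 6 of which left out an array. Not all of these are separate checks. Each glycogen gene has 1 probe set, so the mean of own probe sets left its fold changes as they were. Leaving out an array of the group not compared repeats the fit on only the arrays compared. Against the untreated control, no call of a glycogen gene with nystatin plus CdS QDs ended or appeared under any of them, and *GLG1*, which had no call, turned to −0.002 with median centring and ranged from −0.034 to 0.039 as arrays were left out. The count of genes that rose with nystatin alone, 2, was the one count to change by more than 1.5 times under settings that kept all arrays, to 1 without moderation and to 0 over all probe sets. It ranged from 0 to 3 as arrays were left out, and was 0 without untreated control replicate 1 or nystatin replicate 2. *PGM1* with nystatin ranged from −0.053 to 0.024. With a replicate block, 5 genes rose and 4 fell with nystatin plus CdS QDs against the control, 2 rose and 0 fell with nystatin, and 3 rose and 4 fell between the treated groups, as without it. Leaving out arrays for the paralog differences was added after the data had been seen, and *GLG2* minus *GLG1* with nystatin then ranged from −0.032 to 0.075. The causes were not tested. All 10 genes were above background on every array, as were 98.8% to 99.2% of all yeast probe sets per array, and each group had 2 arrays.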
